A study of Mus musculus with 17 samples.

Results

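Among 6 summed bone marrow RNA-seq samples, 2 samples from opposite treatment groups stood apart from the other 4, and the genes that set them apart are described here. The pair consisted of the control sample that adds libraries 7, 8 and 9 (control 7-9) and the Mt1ko sample that adds libraries 10, 11 and 12 (Mt1ko 10-12). The other 4 were control 1-3, control 14-15, Mt1ko 4-6 and Mt1ko 16-18, each named by the libraries it adds. The pair thus held 2 of 6 samples and 6 of 17 libraries, and the other 4 samples held 11 libraries. The pair was picked because measured expression values had already shown it to differ, so every value for the pair against the rest is a description and carries no test.

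All 6 samples came from mouse bone marrow of the genotype Dnmt3aR878H/+;Npm1cA/+, a pairing of a heterozygous Dnmt3a missense allele with a heterozygous Npm1 mutant allele that models acute myeloid leukaemia on a C57BL/6 background. Controls and Mt1ko samples share both alleles, and the Mt1ko samples were in addition targeted by CRISPR-Cas9 at Mt1, which encodes the metal-binding protein metallothionein 1. The sources used here do not give the age, the promoter or cell type in which the alleles were activated, or the control guide. The labels call all 17 libraries technical replicates, and nothing says that the sums are separate animals or cultures, so the spread between samples may be technical. In bulk RNA, fewer cells of a type and less RNA per cell cannot be told apart.

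The background to the genes below is as follows. Secretory and membrane proteins fold in the endoplasmic reticulum with the help of chaperones such as Hspa5 and of disulfide isomerases, and the factors XBP1 and ATF6 raise the genes for this machinery through a promoter element with a CCAAT box and a CCACG box. ATF4 is a separate factor that raises genes for amino acid synthesis and uptake when amino acids run short or eIF2alpha is phosphorylated. Myeloid cells also make lineage products that pass through the same compartment, among them the serine proteases of neutrophil primary granules (Elane, Prtn3, Ctsg), the chitinase-like protein Chil3 and the mannose receptor Mrc1 of alternatively activated macrophages.

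Promoters are shown for these genes because folding genes were lower in both samples of the pair. Windows are from RefSeq promoters on GRCm38.p6, which run from 250 bases before to 50 bases after each gene's start, and 438 of the 788 symbols in the lower set had one. Capitals mark the match to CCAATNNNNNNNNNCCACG, the endoplasmic reticulum stress element, read on the gene's own strand or as its reverse complement.
Hspa5, chr2:34772000-34772068, plus strand: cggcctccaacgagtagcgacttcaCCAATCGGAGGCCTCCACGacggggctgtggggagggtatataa
Pdia6, chr12:17266466-17266534, plus strand: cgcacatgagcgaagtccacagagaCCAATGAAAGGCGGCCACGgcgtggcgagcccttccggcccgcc
Hsp90b1, chr10:86705613-86705681, minus strand: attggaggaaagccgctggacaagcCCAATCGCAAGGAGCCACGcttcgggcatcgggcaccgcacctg
Hsp90b1, chr10:86705508-86705576, minus strand: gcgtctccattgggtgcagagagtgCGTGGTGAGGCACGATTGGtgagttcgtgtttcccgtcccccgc
Creld2, chr15:88819495-88819563, plus strand: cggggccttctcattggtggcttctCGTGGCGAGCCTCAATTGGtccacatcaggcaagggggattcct

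The first capital lies 65 bases before the gene's start in Hspa5, 98 in Pdia6, 212 and 107 in the pair of Hsp90b1 matches and 126 in Creld2. The element was found in 7 of 540 promoters of genes lower in the pair (1.3%), in 0 promoters of genes higher in it and in 19 of 13338 promoters of all tested genes (0.142%). Among the 25 folding genes, 9 of 21 promoters held it (42.9%), so the count in the lower set is carried largely by genes of that list.

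A second set of windows shows the shorter element TGATGNAA, bound by ATF4 with C/EBP proteins, in the asparagine synthetase gene Asns and the glutathione-degrading enzyme gene Chac1.
Asns, chr6:7693210-7693257, minus strand: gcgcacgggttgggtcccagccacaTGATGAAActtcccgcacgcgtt
Chac1, chr2:119351024-119351081, plus strand: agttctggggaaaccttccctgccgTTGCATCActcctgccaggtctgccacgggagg

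This element was present in 32 of 540 promoters of the lower genes (5.93%), 2.47% of those of the higher genes and 319 of 13338 of all tested genes (2.39%). Among abundant genes the order was the other way, with 1 of 77 promoters of the lower genes against 2.12% of all. Elane and Prtn3, adjacent genes for granule proteases, carry GAGGAAG, an element of the myeloid factor PU.1, shortly before their start.
Elane, chr10:79886202-79886258, plus strand: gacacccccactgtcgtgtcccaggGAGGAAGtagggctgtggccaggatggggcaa
Prtn3, chr10:79879547-79879603, plus strand: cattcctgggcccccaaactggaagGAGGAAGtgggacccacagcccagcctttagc

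GAGGAAG was in 13.0% of the promoters of lower genes, 13.1% of those of higher genes and 13.6% of all, and among abundant genes in 11.7% of those of lower genes and 15.0% of all. All searches took both strands, a promoter could count for several elements, and a match describes letters, not occupancy.

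Library totals were 27124722 to 38645072 counts and the sums 64247249 to 106407001. Levels are given as CPM (read counts scaled to a common depth) with TMM factors, which even out differences in composition between samples. Summed without TMM factors, the monocyte genes listed took 9833 to 14323 CPM, stroma and endothelium markers 4645 to 9109, nearly all of it Spp1 (osteopontin, which macrophages also make), megakaryocyte genes 1825 to 5101, mast cell markers 893 to 4924 and erythroid genes 60.1 to 162. Itgam was at 2262 to 3624 CPM, Lyz2 at 2238 to 5644 and Mpo at or below 5.84. Several libraries stood apart in RNA content. Mitochondrial ribosomal RNA took 21.9 to 30.2% of the counts in libraries 10 to 12 and 6.03, 8.77 and 11.2% in libraries 7, 8 and 9, against 4.58 to 6.31% in the other 11. Libraries 10 to 12 detected 11548 to 13174 genes, libraries 7, 8 and 9 detected 17739, 15404 and 14823, and the other 11 detected 15949 to 17159. Of the 16666 genes tested, 14.5% were at 0 in Mt1ko 10-12 and 1.56 to 3.23% in the other samples. Library 7 thus detected more genes than any of the other 11, its mitochondrial share lay within their range, and it is given beside the results throughout. In the first component of the 4869 abundant genes (those averaging 5 or more in log2 CPM), which held 71.0% of the variance over samples, control 7-9 lay at 14.7 and Mt1ko 10-12 at 27.8, and the other 4 lay between -13.7 and -7.0. The gap was narrower between libraries, where the first component held 41.2% of the variance. Library 15 lay at 0.582 and library 7 at 5.35, with the rest of the pair at 12.5 to 32.3 and the remaining libraries at -18.1 to -6.70.

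A gene was said to separate the sets when both samples of the pair lay above, or both below, all 4 others and each differed at least 2-fold in that direction from the mean of the other samples of its own group. By this rule 694 genes were higher in the pair (4.16% of 16666) and 798 were lower (4.79%). These are the shares that the rule itself picks out of all genes, and nothing is read from their size. Most were thinly counted: 468 of the 798 lower genes were at 0 in Mt1ko 10-12, and 151 were at 0 in control 7-9. The lower genes had a median exon length of 2497.5 bases against 3658 in all tested genes. Just inside the 2-fold bound were Cyb5a among the higher genes, at a log2 difference of 1.00 in the control group, and Kdm6b among the lower ones, at -1.0 in the Mt1ko group. Just outside were Wdr90 at 0.997 in the control group and Fcgr2b at -0.996 in the Mt1ko group.

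Among the abundant genes the sets were uneven in size, with 17 higher (0.349% of 4869) and 85 lower (1.75%). Both samples of the pair tended to depart from their groups in the same direction: across the 4869 abundant genes, the log2 difference of control 7-9 from its group and that of Mt1ko 10-12 from its own had a Pearson r of 0.63 and a Spearman rho of 0.56. Across all 16666 genes r was 0.17. These are correlations across genes within 2 differences that share no sample, genes are not independent replicates, and the samples had been chosen for such values.

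**Figure D1:**
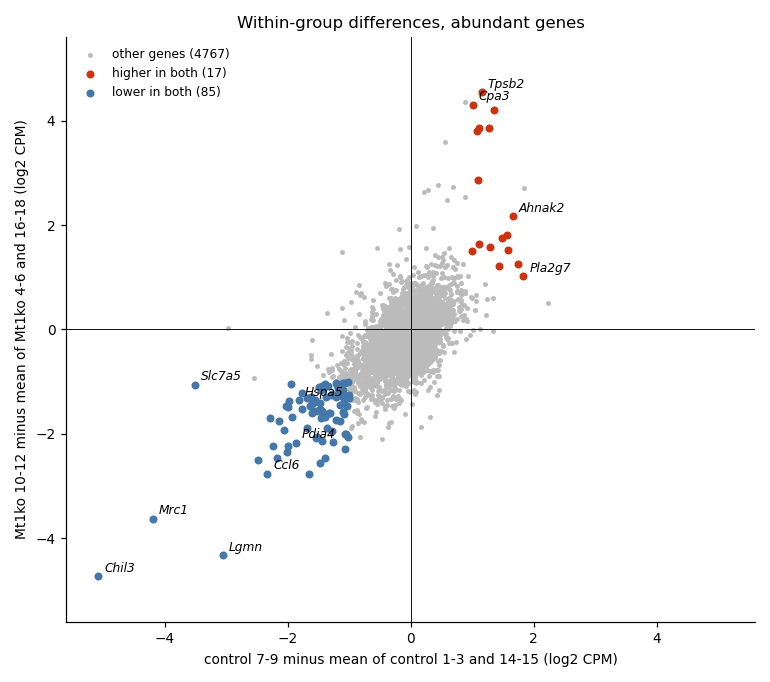
Log2 CPM differences of control 7-9 (horizontal axis) and Mt1ko 10-12 (vertical axis) from the mean of the other 2 samples of their own group, 1 point per gene for the 4869 abundant genes. Red points are the 17 genes higher in both and blue points the 85 genes lower in both; Chil3, Mrc1 and Lgmn lie farthest to the lower left, and Cpa3 and Tpsb2 are high mainly on the vertical axis.

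Chil3 on chromosome 3 (106147554 to 106167564, minus strand, GRCm38) encodes a secreted chitinase-like lectin of myeloid cells. Its level was 1624 CPM in control 1-3, 1711 in control 14-15, 1904 in Mt1ko 4-6 and 1468 in Mt1ko 16-18, but 49.2 in control 7-9 and 63.0 in Mt1ko 10-12. The pair was lower 33.9-fold within the controls and 26.5-fold within the Mt1ko group, and the residual SD of log2 CPM after group and set was 0.20. All 6 libraries of the pair, at 22 to 112 CPM, lay under the lowest of the 11 others at 1217.

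Mrc1, the mannose receptor on chromosome 2 (14229392 to 14332057, plus strand), followed the same order. It stood at 12.2 CPM in control 7-9 and 19.9 in Mt1ko 10-12, against 305, 164, 259 and 235 in control 1-3, control 14-15, Mt1ko 4-6 and Mt1ko 16-18. The level of control 14-15 was set by its library 15, at 66.9 CPM, whereas library 14 had 257. The 6 libraries of the pair ranged from 4.30 to 23.7 CPM and so did not overlap with library 15 either.

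Elane, the neutrophil elastase gene on chromosome 10 (79886247 to 79888215, plus strand), was at 6.71 CPM in control 7-9 and 1.37 in Mt1ko 10-12. The other samples held 54.5, 80.0, 66.4 and 27 CPM in the order control 1-3, control 14-15, Mt1ko 4-6 and Mt1ko 16-18. Here the margin between libraries was thin, since library 9 reached 21.0 CPM and library 18 was at 22.8. Library 7, by contrast, had 0.826 CPM. Chil3, Mrc1 and Elane had been given as marks of the pair beforehand, so their place in it is no finding.

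**Figure D2:**
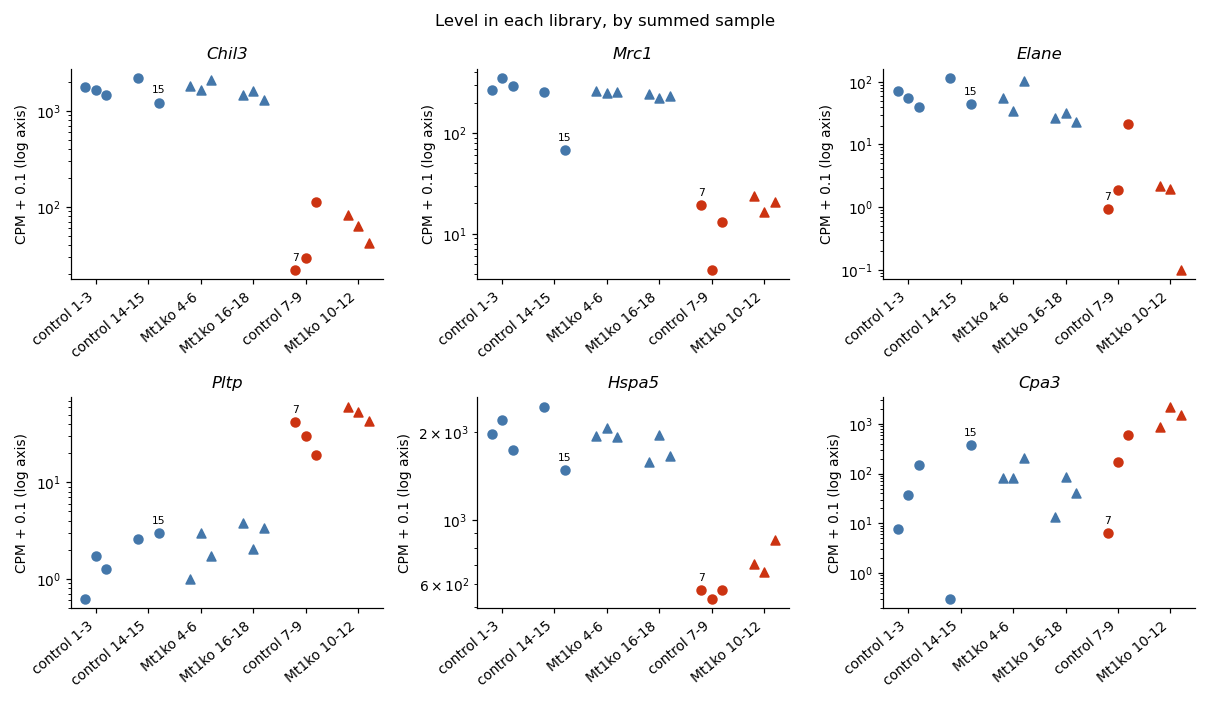
CPM plus 0.1 on a log axis in each of the 17 libraries for Chil3, Mrc1, Elane, Pltp, Hspa5 and Cpa3, grouped by summed sample, with circles for control, triangles for Mt1ko, red for the pair and blue for the other 4; libraries 7 and 15 are numbered. Chil3, Mrc1 and Hspa5 are low and Pltp is high in all 6 red libraries, whereas Cpa3 spans 0.203 to 2201 CPM and is at 6.32 in library 7.

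Genes for protein folding in the endoplasmic reticulum all lay on the same side in the pair. All 25 listed genes were tested, all 25 lay below the other 4 samples in both samples of the pair, and 12 passed the 2-fold rule in both groups (Derl3, Dnajb9, Pdia4, Pdia6, Manf, P4hb, Sdf2l1, Hyou1, Creld2, Hspa5, Hsp90b1 and Sec61b). Derl3 had 0 counts in every library of the pair and under 1 CPM in every other library, so its place in both counts is uncertain. Over all 16666 genes, 20.1% lay below in both and 4.79% passed the rule. The median log2 difference was -1.20 within the controls and -1.16 within the Mt1ko group, against 0.03 and -0.16 over all genes.

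Hspa5 encodes BiP, the main chaperone of the compartment, and its promoter heads the windows above. It was at 558 CPM in control 7-9 and 732 in Mt1ko 10-12, and at 1980, 1971, 2014 and 1753 in control 1-3, control 14-15, Mt1ko 4-6 and Mt1ko 16-18. The pair was 3.54-fold lower within the controls and 2.57-fold lower within the Mt1ko group, with a residual SD of 0.17 on the log2 scale. The 4 others differ from each other far less than any of them differs from the pair.

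Pdia4, a disulfide isomerase, was at 728 and 581 CPM in control 7-9 and Mt1ko 10-12 and between 2366 and 2999 in the other samples. Dnajb9, a cochaperone of BiP, was at 16.9 and 12.7 CPM against 69.2 to 80.4. Manf, a secreted folding and survival factor, was at 64.9 and 86.6 against 204 to 285. The smallest differences on the list had the same sign: the lectin chaperone Canx was at 698 and 683 CPM against 986 to 1088, and Atf6, which encodes one of the factors itself, differed by -0.51 within the controls and -0.49 within the Mt1ko group on the log2 scale. Xbp1 was at 175 and 129 CPM against 273 to 313.

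**Figure D3:**
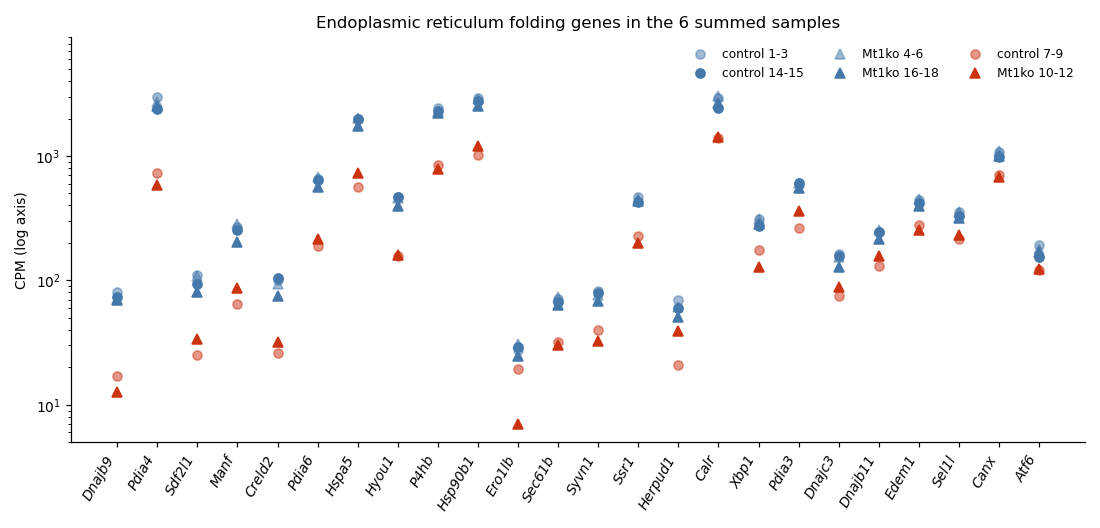
CPM on a log axis of 24 of the 25 listed endoplasmic reticulum folding genes (Derl3, under 1 CPM in all samples, is not drawn) in the 6 summed samples, ordered by the size of the difference; circles are control, triangles Mt1ko, red the pair and blue the other 4. For every gene drawn both red points lie under the 4 blue ones.

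ATF4-related genes were lower as well, but less evenly. Of 24 tested, 18 lay below the other samples in both samples of the pair, 10 passed the rule (Chac1, Phgdh, Asns, Aldh1l2, Slc7a1, Mthfd2, Shmt2, Trib3, Psat1 and Slc7a5) and 0 passed it in the higher direction. The shares below and passing were 75.0% and 41.7%, against 20.1% and 4.79% of all genes. The median log2 difference was -0.71 within the controls and -1.0 within the Mt1ko group. Phgdh and Psat1 act in serine synthesis, Asns makes asparagine, Shmt2, Mthfd2 and Aldh1l2 act in one-carbon metabolism, and Slc7a1 and Slc7a5 import amino acids. Chac1 degrades glutathione and Trib3 is a pseudokinase. Phgdh, the first enzyme of serine synthesis, was at 0.551 and 0.604 CPM in control 7-9 and Mt1ko 10-12 against 49.8, 27.2, 29.6 and 16.9 in control 1-3, control 14-15, Mt1ko 4-6 and Mt1ko 16-18. Every library of the pair was at or below 1.59 CPM for Phgdh, and the 11 others were at 11.4 or above.

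Asns was at 9.69 and 11.6 CPM in the pair and at 38.9 to 61.8 in the other samples. Slc7a5, a large neutral amino acid transporter, was at 9.43 CPM in control 7-9 but 32.8 in Mt1ko 10-12, against 49.7 to 133. Chac1 had 0 counts in all 6 libraries of the pair, against 1.19 to 5.19 CPM in the other sums, which makes it at least 67.3-fold lower when 3 counts per summed sample are taken as the floor. The list was not uniform, since Ddit3, a stress-induced factor, was at 26.3 and 30.5 CPM against 24.6 to 31.1 and overlapped, and Slc7a11, the cystine transporter, was at 117 and 225 CPM against 69.6 to 114, higher in both.

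Among neutrophil primary granule genes, 6 of 12 tested separated and were lower (Ctsg, Elane, Prtn3, Ctsc, Plac8 and Ms4a3) and 0 were higher. The lower share was 50.0%, against 4.79% of all genes, and 3 of the 12 were at or under the floor of 3 counts in Mt1ko 10-12. Prtn3, the protease 3 gene next to Elane, was at 8.54 CPM in control 7-9 and 6.06 in Mt1ko 10-12 against 45.7, 43.2, 39.9 and 27 in the same order of other samples as for Elane. Ctsc, the protease that activates these granule enzymes, was at 46.2 and 53.4 CPM against 144 to 239. Ctsg was at 1.35 CPM in control 7-9 and at 0 in Mt1ko 10-12, against 17.9 to 33.9. Mpo, the classical member of the group, was too low in every sample to follow them and differed in direction between the samples of the pair.

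Late neutrophil genes gave 6 lower of 17 tested (Il1r2, Lcn2, Cxcr2, Cd177, Csf3r and Padi4) and 0 higher. The lower share was 35.3%, against 4.79% of all genes. In the Mt1ko sample of the pair, 5 of the 17 were at or under the floor of 3 counts. Lcn2, the siderophore-binding lipocalin, was at 1.53 and 2.74 CPM in the pair against 17.8 to 28.0. Csf3r, the receptor for granulocyte colony-stimulating factor, was at 22.4 and 25.8 against 48.4 to 62.5. S100a8 did not follow, at 9.80 and 11.1 CPM inside a range of 8.46 to 16.8.

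Scavenger and lectin receptors split by gene. Of 18 tested, 6 were lower (Chil3, Chil4, Mrc1, Folr2, Cd163 and Msr1) and 0 were higher by the rule. The lower share was 33.3%, against 4.79% of all genes, and it includes Chil3 and Mrc1, which had been given as marks of the pair. In the Mt1ko sample of the pair, 5 of the 18 were at or under the floor of 3 counts. Chil4 is a near copy of Chil3 with 0 counts in the pair and at most 1.23 CPM elsewhere, so reads shared between the copies leave it uncertain. Msr1, the class A scavenger receptor, was at 329 and 266 CPM against 592 to 733. Clec4d, a C-type lectin of myeloid cells, went the other way at 481 and 508 CPM against 305 to 386, under the 2-fold bound.

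Genes named as interleukin 4 and STAT6 responses gave 7 lower of 15 tested (Irf4, Chil3, Ccl24, Mrc1, Ch25h, Egr2 and Il4ra) and 0 higher, and 2 of the 7 are counted in the previous list too. The lower share was 46.7%, against 4.79% of all genes. Il4ra, the receptor chain, was at 356 and 354 CPM in the pair against 797 to 956. Arg1, an arginase that is often read with these genes, was at 179 CPM in control 7-9 and 68.2 in Mt1ko 10-12 against 128 to 197, so it did not separate.

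Of 24 monocyte identity genes tested, 1 was higher (Cx3cr1) and 2 were lower (Fcgr1 and Mertk) by the rule, shares near those of all genes. At any fold, 9 of the 24 lay below the 4 others in both samples of the pair (37.5%, against 20.1% of all genes) and 6 lay above (25%, against 15.6%), and the summed level of the 25 listed genes was 14323 and 9833 CPM without TMM factors in the pair against 10889 to 12399. Lyz2, the lysozyme gene, was at 5644 and 4589 CPM in the pair against 2238 to 3111, Cd68 at 270 and 257 against 219 to 284, and Adgre1, which encodes F4/80, at 236 and 221 against 231 to 290. Csf1r was at 440 CPM in control 7-9 and 245 in Mt1ko 10-12, on either side of the 357 to 419 of the others. Cx3cr1, the fractalkine receptor, was at 29.2 and 24.4 CPM against 2.46 to 7.28, and Ly6c2, a classical monocyte surface gene, at 246 and 224 against 396 to 503.

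Several other abundant genes were lower in both groups. Ccl6, a myeloid chemokine, was at 101 and 106 CPM against 471 to 963. Mmp19, a matrix protease, was at 109 and 116 against 429 to 694, and the integrin chain Itga1 at 85.6 and 94.0 against 302 to 422. Lgmn, the lysosomal asparaginyl endopeptidase legumain, was at 8.78 and 4.77 CPM against 69.5 to 102, and 3 of 30 tested lysosome genes were lower by the rule (Lgmn, Mertk and Tfec; 10.0%, against 4.79% of all genes). Ccl2, a monocyte chemoattractant, was at 195 and 178 CPM against 477 to 851, and with Ccl7, Cxcl3 and Ptgs2 it made 4 lower and 1 higher (Traf1) among 26 inflammatory genes. These lower and higher shares were 15.4% and 3.85%, against 4.79% and 4.16% of all genes.

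The 12 lower genes with the widest margin in both groups and an average log2 CPM of at least 1 were Csn2, Phgdh, Chil3, Ctsg, Cyp26b1, Mrc1, Elane, Lgmn, Dusp22, Lcn2, Bcl2a1d and Trim30c. Csn2, the milk protein beta-casein, had 8.77, 37.5, 27.9 and 28.0 CPM in control 1-3, control 14-15, Mt1ko 4-6 and Mt1ko 16-18 and 0 counts in all 6 libraries of the pair, at least 625.5-fold lower within either group with the same floor of 3 counts, on the log-mean scale of the other folds. Cyp26b1, a retinoic acid hydroxylase, was at 0.734 and 1.27 CPM against 12.8 to 23.5. Bcl2a1d and Trim30c belong to families of near-identical copies, and their counts are uncertain.

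The 12 higher genes chosen in the same way were Pltp, Adgrg7, Cd300ld3, Hpgds, Unc13a, Pigr, Tanc2, Pakap, Cspg4, Lox, Tjp1 and a locus listed only under a sequence identifier. Pltp, the phospholipid transfer protein on chromosome 2 (164839518 to 164857711, minus strand), had the widest margin. Its level was 31.6 CPM in control 7-9 and 52.4 in Mt1ko 10-12, against 1.14, 2.69, 1.84 and 2.93 in control 1-3, control 14-15, Mt1ko 4-6 and Mt1ko 16-18. Its 6 libraries in the pair held 19.0 to 60.1 CPM and the 11 others at most 3.68, with 42.4 in library 7.

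Lox, the lysyl oxidase gene, was at 13.9 and 19.4 CPM against 1.86 to 2.94, and Cd300ld3, a myeloid receptor from a family of close copies, at 10.7 and 25.2 against 1.05 to 3.24. Among abundant higher genes, all 6 libraries of the pair lay above all 11 others for Ahnak2 (368 to 911 against 98.9 to 197 CPM), the inhibitory receptor Cd300a (99.1 to 175 against 33.2 to 75.7), the ATP-gated channel P2rx7 (87.4 to 153 against 26.7 to 66.2), the lipoprotein-associated phospholipase Pla2g7 (172 to 263 against 47.6 to 121) and the adhesion receptor Adgre5 (128 to 177 against 43.4 to 72.5).

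A further group of higher genes was uneven within the pair. Of 13 mast cell, basophil and eosinophil markers tested, 7 were higher (Tpsab1, Fcer1a, Gata2, Ms4a2, Tpsb2, Kit and Cpa3) and 1 was lower (Ccr3), with a median log2 difference of 1.01 within the controls and 3.89 within the Mt1ko group. The higher and lower shares were 53.8% and 7.69%, against 4.16% and 4.79% of all genes. Cpa3, the mast cell carboxypeptidase on chromosome 3 (20215620 to 20242181, minus strand), was at 224 CPM in control 7-9 and 1564 in Mt1ko 10-12, against 68.8, 180, 128 and 48.5 in control 1-3, control 14-15, Mt1ko 4-6 and Mt1ko 16-18. Its libraries went from 883, 2201 and 1494 CPM in 10, 11 and 12 to 6.32, 171 and 589 in 7, 8 and 9, while libraries 14 and 15 of a single control sum held 0.203 and 372. Library 7 thus lay inside the range of the 11 others, and libraries that make up 1 sum differed widely in this gene.

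Tpsb2, a mast cell tryptase, and Kit, the stem cell factor receptor, had the same order, with library 7 at 10.2 and 2.40 CPM and library 11 at 2399 and 457. The noncoding RNA Xist was at 164, 337 and 112 CPM in libraries 10, 11 and 12, at 1.01, 21.0 and 111 in 7, 8 and 9, and at 54.6 in library 15, and it was at or below 28.0 in the remaining 10. Of the genes named above for the widest margins, Hpgds, Adgrg7, Tanc2, Tjp1 and Pakap were at 0.465, 0.361, 0.620, 1.19 and 4.41 CPM in library 7, inside the range of the 11 others, and so rest on the other libraries of the pair. The locus listed only under a sequence identifier was at 7.90 CPM in library 7, inside the 0 to 9.70 of the 11 others. It was at 0 in libraries 8 and 12 of the pair. Summed over the 23 listed markers, of which 7 had no count in any library, libraries of the pair ranged from 326 to 7486 CPM without TMM factors, with library 7 lowest, and the other 11 from 666 to 2310. What part this RNA has in other differences was not tested. In library 7 the log2 difference from the other control libraries was -6.20 for Chil3, -3.49 for Mrc1, -1.76 for Hspa5 and 4.77 for Pltp, beside -5.08, -4.19, -1.82 and 4.16 for the sum control 7-9.

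Among stem and progenitor genes, 7 of 20 tested were higher (Mecom, Erg, Flt3, Tal1, Gata2, Kit and Angpt1) and 0 lower, and Gata2 and Kit belong to both lists. The higher share was 35.0%, against 4.16% of all genes. In library 7 the median log2 difference from the other control libraries was -0.52 over those of the 20 genes also tested in the libraries. Mecom, Erg and Angpt1 were at 0 CPM in library 7. Flt3 was high in library 7 too, at 4.54 CPM against at most 2.37 in any of the 11 others, but it was at 0 in library 11 of the pair.

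Repeating the rule with libraries, so that all 6 of the pair must lie outside all 11 others, left 42 genes higher (0.297% of 14135 tested) and 180 lower (1.27%), of which 42 and 174 were also in the sets from the sums. Of the abundant genes, 9 of 17 higher and 72 of 85 lower kept this separation. Without libraries 10 to 12, comparing libraries 7, 8 and 9 with 1, 2, 3, 14 and 15, the rule gave 297 higher (2.1%) and 431 lower (3.05%), of which 129 and 243 were shared with the sets from the sums.

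Library 7 alone against the 11 others gave 528 genes higher (3.74%) and 550 lower (3.89%). Of the genes that separated the sums and were also tested in the libraries, 270 of 486 higher genes (55.6%) and 303 of 498 lower genes (60.8%) differed at least 2-fold in that direction from the other control libraries in library 7. Over all 14135 genes tested in the libraries these shares were 9.01% and 7.72%. Library 7 is part of the sum that chose the genes, so these counts are not independent of the rule. For the abundant genes, all 85 lower genes were lower in library 7, 67 of them at least 2-fold, whereas 9 of 17 higher genes were at least 2-fold higher and 6 had the opposite sign (Tph1, Il1rl1, Tpsb2, Kit, Ccnd2 and Cpa3). List medians in library 7 cover only the members also tested in the libraries. The median log2 difference in library 7 was -1.27 for the folding genes, -0.83 for the ATF4 genes, -1.96 for the primary granule genes and -1.57 for the mast cell markers.

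The second index sequence of the libraries, a technical label, crosses the sets. Libraries 7 and 8 share theirs with libraries 1 to 6, and libraries 9 to 12 share theirs with 14, 15 and 16. Within the first the pair has only control libraries, so the 2-fold bound applied to the controls alone and gave 531 genes higher and 608 lower of 14135 tested. Within the second, where the pair has both groups, the full rule gave 189 higher and 639 lower of 14135. The third index is held by libraries 17 and 18 only, so it gives no value. Chil3 was at 22 and 29.1 CPM against 1471 to 2107 within the first index, and at 41.8 to 112 against 1217 to 2191 within the second.

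**Figure D4:**
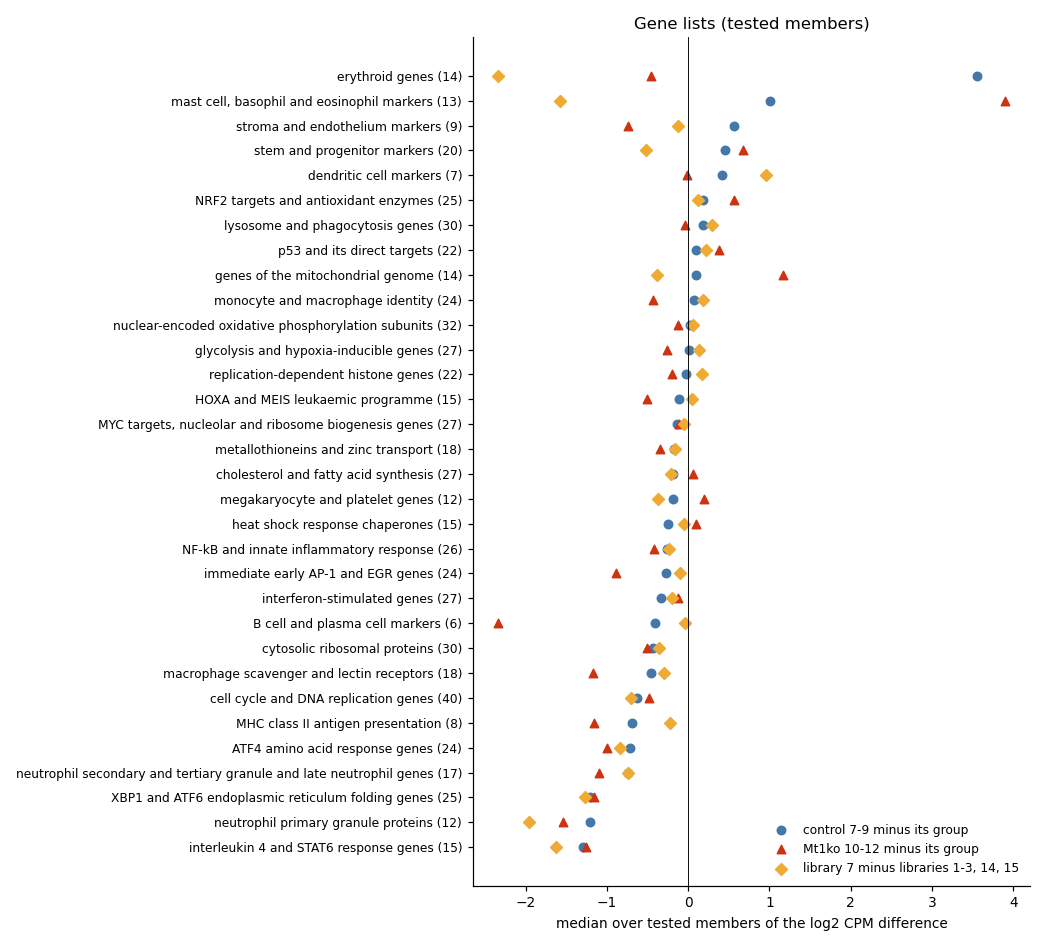
Median log2 CPM difference over the tested members (number in parentheses) of each gene list with at least 5 of them, for control 7-9 (circles) and Mt1ko 10-12 (triangles) from the other samples of their group, and for library 7 (diamonds) from libraries 1, 2, 3, 14 and 15. Diamonds cover only the members also tested in the libraries. Folding genes sit near -1.2 for all 3 symbols, and mast cell markers lie at 1.01 and 3.89 for the sums but at -1.57 for library 7.

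Mt1 itself did not divide the pair from the rest. It was at 353, 441 and 359 CPM in control 1-3, control 7-9 and control 14-15 and at 172, 67.8 and 80.7 in Mt1ko 4-6, Mt1ko 10-12 and Mt1ko 16-18, so each group was on its labelled side. Within Mt1ko 4-6, however, library 6 had 317 CPM, close to the lowest control library at 333, where the other 8 libraries labelled Mt1ko had 49.3 to 95.8. Mt1 was lower in the Mt1ko group by a log2 fold change of -1.85 (SE 0.34) with 3 samples in each group and -1.89 (SE 0.33) with the set as a term, at an unadjusted p of 0.000751 and 0.000427 and an adjusted p of 1.00 and 0.986 in edgeR's quasi-likelihood test with Benjamini-Hochberg adjustment.

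The comparison of Mt1ko with control, the one the labels give, called 0 of 16666 genes at an adjusted p under 0.05 (0.0%) by that test, with 171 genes at an unadjusted p under 0.05. With the set as a term it again called 0 genes (0.0%), with 372 at an unadjusted p under 0.05, while DESeq2 called 1 gene (Mt1) without the term and 16 with it. The term was chosen from the same data, so these counts are not independent evidence. For Chil3 the SE of the Mt1ko effect was 1.28 on the log2 scale without the term and 0.13 with it, around estimates of 0.02 and 0.13, and for Mrc1 the SE was 1.10 and 0.23. Both genes were given as marks of the pair, so the term had to take up their spread. Nothing is read from the smaller SE. The pair contributes 1 sample to each group.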

How the data were processed

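RNA was isolated with a column kit for small inputs including DNase digestion, and stranded total RNA libraries for very low input were prepared, per the labels' protocols. Trimmomatic 0.35 and RSEM 1.3.3, with GRCm38 and mm10, are named in the submitters' processing notes; the sources used here name no aligner or strand setting. The deposited values are raw whole-number read counts, 1 column for each of 17 libraries and 6 sums, and each sum equalled its libraries in all 56305 genes. How RSEM estimates became whole numbers is not stated. Coordinates are GENCODE vM21 on GRCm38, to which 55227 identifiers matched. The 694 higher and 798 lower identifiers stand for 687 and 788 symbols.

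Genes were kept by filterByExpr and scaled by TMM in edgeR 4.0.16 (R 4.3.3), with log2 CPM at a prior count of 2; summed list levels are CPM without TMM factors. The group was a covariate in the set coefficient. Mt1ko against control was tested with edgeR's quasi-likelihood test, with DESeq2 1.42.0 as alternative. Both steps were tested on simulated data. The members and gene lists (35 lists, 742 genes, 1 unmatched) were chosen with earlier results of these data known. Named genes are Mt1, the 3 given markers, the 12 widest margins in each direction among genes that are not predicted loci, and up to 4 members of each list by set coefficient; other genes named were chosen after their values were seen. Alternatives, in the closing section, varied scaling, filter, fold, prior count, libraries and samples. Library 13 is not analysed here. Bounds from 3 counts cover counting error only.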

Additional observations from a re-analysis of the deposited data

Results flagged for a closer look

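Single libraries stood far from the others of their group in 9 of 78 gene and group pairs examined by Dixon's criterion. Most of these genes were picked for their distance between the sets, and libraries of 1 sum are not independent. The criterion's nominal rate of 1 in 20 therefore does not apply, and the count is a description. Library 6 had 317 CPM of Mt1, against 95.8 in the next highest library labelled Mt1ko. Library 9 was highest among the control libraries for Adgrg7 at 32.5 CPM (next 5.50), Tanc2 at 33.5 (next 8.80) and Mpo at 20.7 (next 2.98). Among the Mt1ko libraries, library 11 was highest for Hpgds at 99.5 CPM (next 36.5), Lox at 31.5 (next 13.2) and Xist at 337 (next 164). Library 10 had 26.1 CPM of the proteoglycan gene Cspg4 (next 2.99), and library 17 had 5.08 CPM of Mpo (next 1.13). Adgrg7, Hpgds, Tanc2 and Cspg4 thus owe their sum in the pair largely to 1 library in a group.

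For 3 named genes the samples of the pair lay on opposite sides of their groups, a difference that was not tested. Mt1 was at a log2 difference of 0.31 in control 7-9 and -0.80 in Mt1ko 10-12, Csf1r at 0.26 and -0.77, and Mpo at 1.94 and -5.78, the last against a sample at 0 counts.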

How the results depend on the processing

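From 694 genes higher and 798 lower, the counts that moved by over 1.5 times were 261 and 237 with at least 1 CPM in every sample of a group, 1168 and 1337 at a 1.5-fold bound, 231 and 344 at a 4-fold bound, 42 and 180 over all 17 libraries, 297 and 431 for libraries 7, 8 and 9 alone, and 189 higher within the second index GCCTCTAT. Of the settings added after the data were seen, average log2 CPM of at least 5 gave 17 and 85 and 16 libraries without library 15 gave 58 and 228. Leaving out 1 sample at a time gave 699 to 2586 higher and 934 to 3874 lower; without control 7-9, where Mt1ko 10-12 stands alone, the counts were 2586 and 3874, and without Mt1ko 10-12 they were 2004 and 1555. RLE or upper-quartile scaling, no filter, a prior count of 0.5 and leaving out mitochondrial genes (698 and 797) stayed within 1.5 times. In library 7 alone, added after the data were seen, 7 of the higher genes followed through these settings had the opposite sign: Mecom at -0.52, Angpt1 at -3.15, Tal1 at -0.015, Tpsb2 at -1.59, Xist at -2.24, Cpa3 at -1.72 and Kit at -1.93. The opposite sign also held for Ccnd2 at -1.45, Il1rl1 at -1.62 and Tph1 at -0.29, which were not among the genes followed. The cause was not tested. For Mt1ko against control, where edgeR called 0 genes, DESeq2 called 1, and 16 with the set as a term; no filter with the term called 70, and leaving out both samples of the pair called 1 (mt-Co3). Leaving out 1 sample gave 0 to 0 calls, and 0 to 1 with the term. No paired analysis was possible because no library number is shared between the groups. At 0 counts a difference is bounded only by the floor of 3 counts; the totals of libraries 10 to 12 lay within the range of the others.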

Other observations

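Further gene groups are given by their counts and levels. Of 30 cytosolic ribosomal protein genes, 28 lay below the other 4 samples in both samples of the pair, with a median log2 difference of -0.43 within the controls, -0.50 within the Mt1ko group and -0.36 in library 7, and 0 passed the rule, where 20.1% of all genes lay below. Rps6 was at 336 CPM in control 7-9 and 270 in Mt1ko 10-12 against 502 to 609. Of 40 cell cycle genes, 7 were lower (Ccne1, Birc5, Top2a, Cdk1, Cenpf, Kif11 and Mki67) and 1 was higher (Ccnd2). These lower and higher shares were 17.5% and 2.5%, against 4.79% and 4.16% of all genes. Top2a, the topoisomerase of dividing cells, was at 10.5 and 10.7 CPM against 29.2 to 47.4, and Mki67 at 23.8 and 24.1 against 40.4 to 97.1. Between libraries only 1 of the 7 (Kif11) kept the separation. Mki67 overlapped, at 0 to 63.6 CPM in libraries of the pair and 31.7 to 136 in the others. Ccnd2, a D-type cyclin, was at 55.5 and 254 CPM against 10.3 to 34.7, and in library 7 its log2 difference from the other control libraries was -1.45.

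Of 25 NRF2 target and antioxidant genes, 13 lay above the other samples in both samples of the pair and 4 below (52.0% and 16.0%, against 15.6% and 20.1% of all genes), and 0 passed the rule. Hmox1, heme oxygenase 1, was at 4043 and 4269 CPM against 2156 to 2823, and the peroxidase gene Prdx1 at 738 and 663 against 373 to 455. Among 22 p53 genes, Plk2 was at 27.5 and 35.2 CPM against 6.39 to 12.9 and Phlda3 at 29.7 and 27.2 against 11.6 to 18.6, the 2 members that were higher by the rule (9.09%, against 4.16% of all genes). Of 12 megakaryocyte and platelet genes tested, 2 were higher (Gata1 and Itga2b) and 2 were lower (Ppbp and Pf4) by the rule. Each share was 16.7%, against 4.16% higher and 4.79% lower of all genes. Pf4, a platelet chemokine that macrophages also make, was at 47.1 and 31.5 CPM against 113 to 214. Itga2b went the other way, at 145, 234 and 164 CPM in libraries 10, 11 and 12, but was at 12.6 in library 7 and 47.5 in library 15.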
